A study of Mus musculus with 8 samples.

Results

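The genes examined were the subunits of the proteasome and of its immune form, the immunoproteasome, in mouse spleen cells that differed in p53 and were exposed to DNA damage. The list held 36 genes, chosen by gene symbol: the alpha and beta rings of the 20S core, the immune beta subunits, the ATPases and other subunits of the 19S cap, and the PA28 activator. They had 47 probes on the array, and a gene was counted as measured where a probe had a detection p-value under 0.01 on at least 1 array. By that rule 31 of the 36 genes were measured, among 7456 genes in all: 5 of the alpha ring, 7 of the constitutive beta ring, 3 immune subunits, 5 cap ATPases, 9 other cap subunits and 2 subunits of PA28. Of these, 26 were detected on all 8 arrays, as were 4874 genes in all. Probes for Psma5, Psma6, Psmc6 and Psmd11 were not detected on any array, and Psmd1 had no annotated probe.

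The proteasome is the large protease that degrades proteins tagged with ubiquitin. Its barrel-shaped core is a stack of alpha and beta rings, in which Psmb5, Psmb6 and Psmb7 carry the sites that cut peptides, and its cap recognises tagged proteins, removes the tag and unfolds them with a ring of ATPases. In immune cells and after interferon, Psmb8, Psmb9 and Psmb10 are built into new cores in place of Psmb5, Psmb6 and Psmb7, and such cores yield many of the peptides that MHC class I molecules present. PA28, made of Psme1 and Psme2, is another interferon-inducible activator that binds the ends of the core.

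Gene expression was measured on 8 Illumina mouse beadchips, 1 array per sample. The cells were splenocytes pooled from 4 C57BL/6 mice aged 5 to 6 weeks and kept in culture. The 7 groups were p53 delta 122 (Δ122p53) cells given amsacrine and their control, p53-null cells given amsacrine, irradiated p53-null cells and 2 p53-null controls, and WT cells given amsacrine and their control, with 1 array each apart from the p53-null control pair. Δ122p53 encodes a p53 protein without its N-terminal part, and the labels do not give zygosity for it. Amsacrine, a topoisomerase II poison, was given at 1 µg/mL for 5 hours, against a 30% ethanol carrier. Irradiation was a pulse of 4 Gy of gamma rays, against untreated cells, and its interval before harvest is unknown here. The labels also leave unsaid which of these controls each control array is and whether the 2 p53-null controls are separate pools. For treatment responses of 1 genotype, their differences, and genotypes compared within control or amsacrine arrays, p-values rest on the spread of this pair alone. That spread may be technical. Additive fits of genotype and amsacrine, over control and amsacrine arrays together, also take in differences between genotypes in the amsacrine response. No probe of Trp53 itself was annotated, so the genotypes could not be checked on the targeted gene.

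Median intensity lay between 69.7 and 81.5 on the 8 arrays, with 7710 to 8633 probes detected of 24613, and the number of arrays limits the precision. Levels below are log2 of the background-corrected, quantile-normalised intensity; they can be set beside each other for 1 probe across arrays, not between probes. Between the p53-null controls (control 2 minus control 1), the 26 genes detected on all arrays differed by -0.41 to 0.96, with a median absolute difference of 0.15, and 0 of them differed by 2-fold or more. Over all 4874 such genes the median absolute difference was 0.30, and 5.54% differed by 2-fold or more.

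The RNA levels of cell type markers differed between arrays. Markers of B cells averaged 8.56 on the amsacrine array and 9.95 on the control array of Δ122p53 cells, 9.19 with amsacrine, 9.95 with irradiation and 10.97 and 10.91 in the controls of p53-null cells, and 8.94 with amsacrine and 10.90 in the control of WT cells (mean log2 level of 9 measured of 12 listed genes). B cell markers were thus lower on every treated array than on its controls. Macrophage markers, 7 measured of 10, averaged 6.40 and 6.38 on the amsacrine and control arrays of Δ122p53 cells, 7.81, 7.40, 8.97 and 9.06 on the amsacrine, irradiated and 2 control arrays of p53-null cells, and 7.95 and 10.07 on those of WT cells. Only 4 and 3 of the 7 were detected on the Δ122p53 arrays, where C1qa and C1qc, macrophage complement genes, were not detected. Erythroid markers, 11 measured of 12, averaged 10.27 and 10.03 on the Δ122p53 arrays, with all 11 detected. They averaged 5.36 to 5.90 on the p53-null arrays and 5.86 and 6.51 on the WT arrays, with 2 to 5 detected. Detection on at least 1 array made a marker count as measured. Markers detected only on the Δ122p53 arrays thus entered through arrays where they were high, so this contrast is a description and no support. In pooled RNA, fewer cells of a type and less RNA per cell cannot be told apart, and the part of these differences in the results that follow was not tested.

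**Figure D1:**
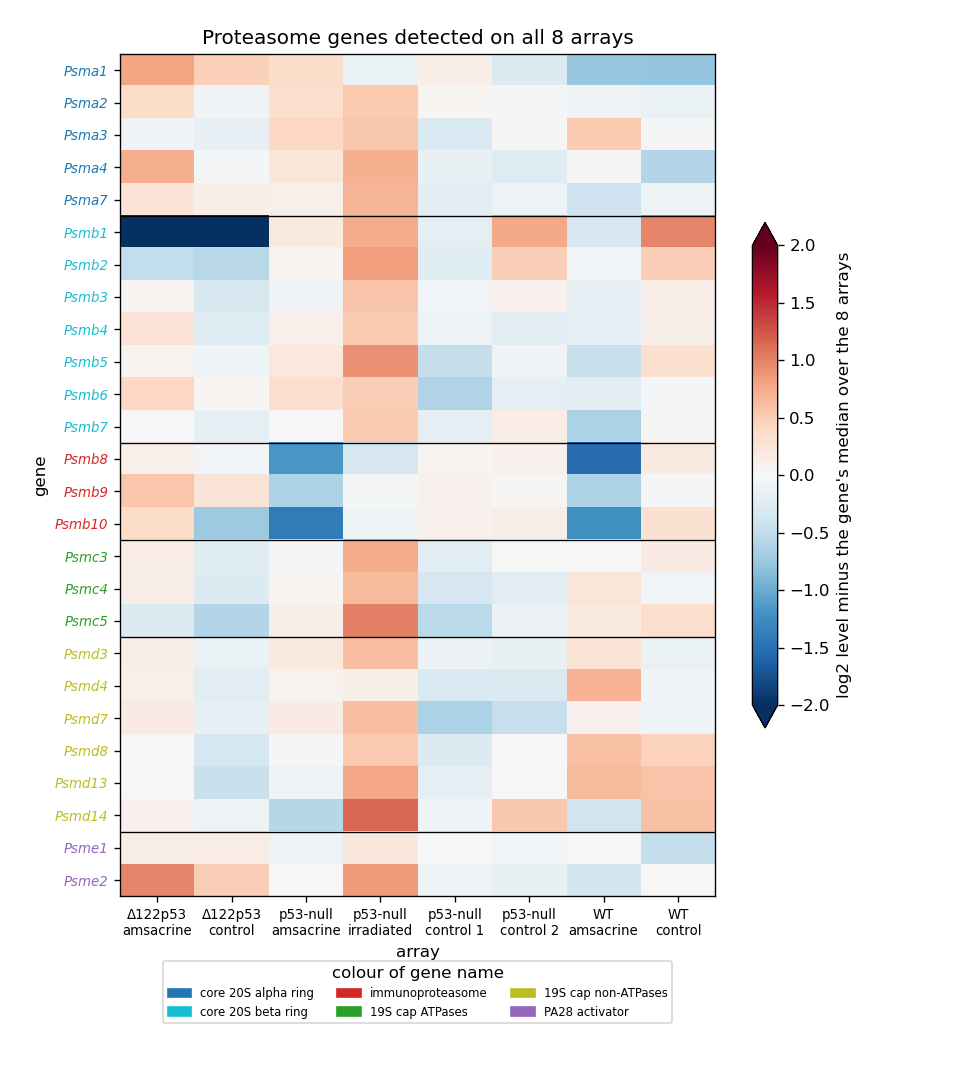
Each row is 1 of the 26 proteasome genes detected on all arrays and each column 1 of the 8 arrays; colour gives the log2 level minus that gene's median over the arrays, cut off at 2 in either direction, and the colour of a name gives the subunit group. Most core and cap genes are highest on the irradiated p53-null array, Psmb8, Psmb9 and Psmb10 are lowest on the amsacrine arrays of p53-null and WT cells, and Psmb1 is low on both Δ122p53 arrays.

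Irradiation of p53-null cells was set against the p53-null control pair. The genes of the standard core and of the cap had higher values on the irradiated array, while the 3 immune subunits did not. No proteasome gene passed the adjusted p threshold of 0.05 (limma, Benjamini-Hochberg over all 7456 genes), and neither did any gene (0%). At an unadjusted p under 0.05, 10 of the 26 proteasome genes detected on all arrays were higher and 0 were lower, where 7.28% of all such genes were higher and 6.24% lower. Over the 26 genes the median difference was 0.70, with 22 above 0, beside a median of 0.06 and 54.9% above 0 for all genes. At least 2-fold higher were 3 of the 26, beside 5.07% of all genes. These values all rest on 1 irradiated array; with control 1 or control 2 left out, the median was 0.58 or 0.85.

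Psmc5 of the cap had the largest value among the 26 genes. This ATPase, of the ring that unfolds substrates, had a level of 12 on the irradiated array, against 10.44 and 10.88 in the p53-null controls, a difference of 1.34 ± 0.36 (SE, 2.53-fold; unadjusted p = 0.0105, adjusted p = 0.234, limma). Its level on the other arrays lay between 10.39 and 11.33, so the irradiated array stood above all of them, and its second probe gave 1.02 ± 0.34. The other ATPases detected throughout, Psmc3 and Psmc4, differed by 0.86 ± 0.34 and 0.90 ± 0.33. Psmd7, a scaffold partner of the cap's deubiquitinase, stood at 10.63 against 9.38 and 9.56 in the controls (1.16 ± 0.33, adjusted p = 0.251), and its second probe gave a smaller 0.46 ± 0.34. Psmd14, the deubiquitinase that cuts the ubiquitin chain off the substrate, was at 8.85 against 7.62 and 8.25 (0.91 ± 0.40, adjusted p = 0.382), again the highest of the 8 arrays. Of the lid subunits, Psmd13 differed by 0.87 ± 0.33 (0.35 ± 0.34 by its second probe), Psmd3 by 0.73 ± 0.33 and Psmd8 by 0.66 ± 0.34, and the ubiquitin receptor Psmd4 by 0.41 ± 0.33. All 9 cap genes detected throughout were above 0, with a median of 0.87 by their brightest probes.

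The 5 cap genes detected on some arrays only were Psmc1, Psmc2, Psmd2, Psmd6 and Psmd12. All 5 were detected on the irradiated array, which had 8370 detected probes in all, within the range of the other arrays. Each counted as measured only through the 2 to 4 arrays that detected it, so this is no support for a response. The share of all partly detected genes that were detected on the irradiated array was not counted. Psmd6, a lid subunit, was detected there at 6.08 and on the WT control array at 5.83. Psmd12, another lid subunit, was at 6.77 on the irradiated array, against 4.99 and 6.28 in its controls, and at 5.44 to 5.98 elsewhere. Such values lie near the detection limit, and genes of this kind are left out of the counts at an unadjusted p.

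In the core, Psmb5, which carries the chymotrypsin-like site, had a level of 11.13 on the irradiated array, against 9.75 and 10.16 in the p53-null controls (1.18 ± 0.36, 2.27-fold; unadjusted p = 0.0170, adjusted p = 0.266). Psmb6, the subunit with the caspase-like site, was at 12.57 against 11.47 and 11.89 (0.89 ± 0.36), and Psmb7, with the trypsin-like site, at 11.26 against 10.55 and 10.88 (0.54 ± 0.35, and 0.11 ± 0.35 by its second probe). The irradiated array was the highest of the 8 for each of these 3 genes. The structural beta subunits Psmb2, Psmb3 and Psmb4 differed by 0.72 ± 0.42, 0.56 ± 0.33 and 0.69 ± 0.33. Among alpha subunits, which form the gate of the core, Psma4, Psma7, Psma3 and Psma2 differed by 0.91 ± 0.33, 0.84 ± 0.33, 0.68 ± 0.35 and 0.52 ± 0.33, and Psma1 by -0.08 ± 0.36. Psme2 of PA28 stood at 9.68 against 8.75 and 8.68 (0.97 ± 0.33, adjusted p = 0.305), and Psme1 differed by 0.24 ± 0.33 and by 0.43 ± 0.37 with its second probe. The immune subunits Psmb8, Psmb9 and Psmb10 differed by -0.40 ± 0.33, -0.10 ± 0.33 and -0.19 ± 0.33, and the second Psmb10 probe by 0.05 ± 0.36.

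Irradiation was also set against amsacrine within p53-null cells. Both responses use the same control pair, whose 2 arrays were unlike. Neutrophil markers averaged 8.83 in control 1 and 8.51 with amsacrine, but 10.52 in control 2 and 10.15 with irradiation. Of 7456 genes, 1069 differed at least 2-fold between amsacrine and control 1, and 1460 between amsacrine and control 2. For irradiation these counts were 1268 and 812. Each treated array was thus nearer to a different control, and the part of that in this comparison was not tested. Here 25 of the 26 genes were higher on the irradiated array, with a median difference of 0.56, beside a median of 0.02 and 51.2% above 0 for all genes; 0 genes passed the adjusted p (0%), and 2 of the 26 had an unadjusted p under 0.05 and were higher, beside 4.9% of all genes detected throughout. Psmd14 had the largest difference of the 26, 1.71 ± 0.46 (adjusted p = 0.44), since it was at 8.85 with irradiation and at 7.14 with amsacrine. Psmb10 followed, at 11.24 with irradiation and 9.93 with amsacrine (1.31 ± 0.38, adjusted p = 0.44).

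**Figure D2:**
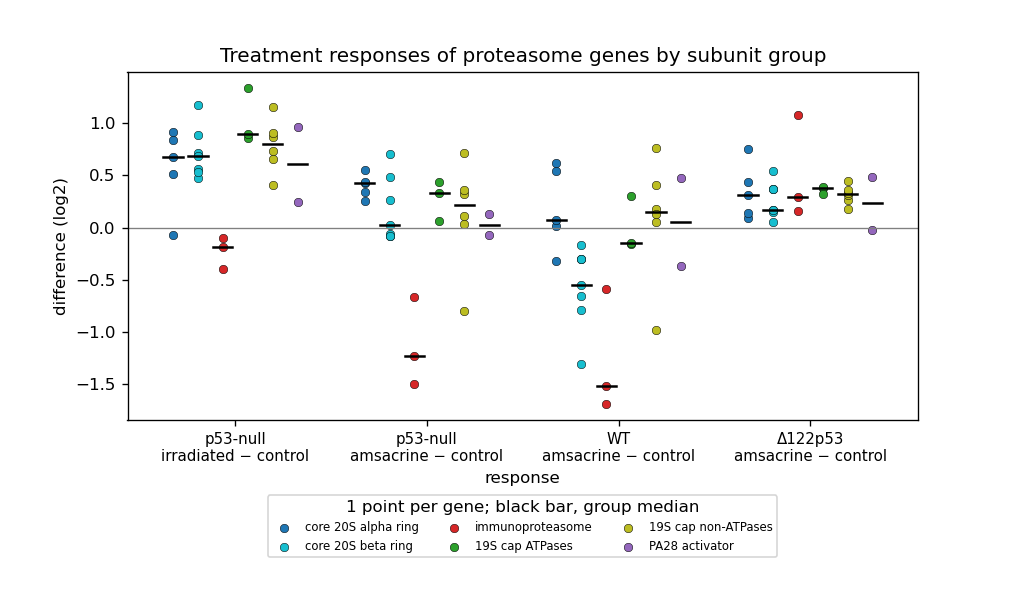
Each point is 1 proteasome gene detected on all arrays, placed by its log2 difference between treated and control arrays of 1 genotype; colours are subunit groups and black bars their medians. In irradiated p53-null cells the medians of all groups but the immune subunits lie between 0.61 and 0.90, and with amsacrine the immune subunits lie below 0 in p53-null and WT cells and above 0 in Δ122p53 cells.

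Amsacrine was given to cells of all 3 genotypes. In p53-null and WT cells, the immune subunits Psmb8 and Psmb10 had the lowest responses of the proteasome genes detected throughout. In Δ122p53 cells Psmb10 instead had the highest response of them. No proteasome gene passed the adjusted p in any of the 3 responses, where 0% of all genes did in Δ122p53 and WT cells and 0.134% in p53-null cells. At an unadjusted p under 0.05, 1 of the 26 proteasome genes detected throughout was higher and 0 were lower in Δ122p53 cells, 0 were higher and 2 lower in p53-null cells, and 0 were higher and 2 lower in WT cells. The shares of all 4874 genes detected throughout in the same directions were 1.68% and 3.98% in Δ122p53 cells, 7.14% and 8.72% in p53-null cells, and 9.38% and 8.04% in WT cells. So in number the proteasome genes were close to the background, and the description rests on which genes they were.

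Psmb8, the immune counterpart of Psmb5, had levels of 9.15 with amsacrine and 8.99 in the control of Δ122p53 cells, 7.88 with amsacrine, 8.72 with irradiation and 9.10 and 9.13 in the controls of p53-null cells, and 7.53 with amsacrine and 9.22 in the control of WT cells. The amsacrine arrays of p53-null and WT cells were the 2 lowest of the 8, and the Δ122p53 amsacrine array was the second highest. The response was 0.16 ± 0.38 in Δ122p53 cells, -1.24 ± 0.33 in p53-null cells (adjusted p = 0.157) and -1.70 ± 0.38 in WT cells (adjusted p = 0.114).

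Psmb10, the immune counterpart of Psmb7, had levels of 11.69 with amsacrine and 10.61 in the control of Δ122p53 cells, 9.93 with amsacrine, 11.24 with irradiation and 11.42 and 11.45 in the controls of p53-null cells, and 10.10 with amsacrine and 11.63 in the control of WT cells. By this brighter of its probes, the Δ122p53 amsacrine array was the highest of all and the Δ122p53 control lay below every other control. The response was 1.08 ± 0.38 in Δ122p53 cells (unadjusted p = 0.0290, adjusted p = 0.654), -1.50 ± 0.33 in p53-null cells (adjusted p = 0.119) and -1.52 ± 0.38 in WT cells (adjusted p = 0.135). A second Psmb10 probe gave 0.95 ± 0.41, -1.70 ± 0.36 and -1.53 ± 0.41 for the same 3 responses, so the direction held for both probes. By that probe the Δ122p53 amsacrine array, at 11.19, lay below p53-null control 2 at 11.25 and the WT control at 11.22.

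Psmb9, the immune counterpart of Psmb6, ran the same way with smaller values. Its level was 12.11 with amsacrine and 11.82 in the control of Δ122p53 cells, 10.94 with amsacrine, 11.52 with irradiation and 11.65 and 11.58 in the controls of p53-null cells, and 10.95 with amsacrine and 11.54 in the control of WT cells. Again the amsacrine arrays of p53-null and WT cells were the lowest, and both Δ122p53 arrays lay above all others. The responses were 0.29 ± 0.38, -0.67 ± 0.33 and -0.59 ± 0.38 in Δ122p53, p53-null and WT cells.

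The difference between genotypes in the response was tested as an interaction. For Psmb10 the response in Δ122p53 cells exceeded that in WT cells by 2.61 ± 0.53 (unadjusted p = 0.0030, adjusted p = 0.332) and that in p53-null cells by 2.58 ± 0.50 (adjusted p = 0.394). For Psmb8 the excess was 1.86 ± 0.53 over WT cells (adjusted p = 0.365) and 1.40 ± 0.50 over p53-null cells (adjusted p = 0.539), and for Psmb9 it was 0.88 ± 0.53 and 0.96 ± 0.50. None of these passed the adjusted p, and neither did any of the 7456 genes in these interactions (0%). Of all genes detected throughout, 8.27% had an unadjusted p under 0.05 in either direction for Δ122p53 against WT cells and 6.85% for Δ122p53 against p53-null cells, and of the 26 proteasome genes Psmb10 and Psmb8 did in both. Between WT and p53-null cells 0 of the 26 did, where 0.78% of all such genes did and 0% passed the adjusted p.

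The 2 genotypes in which the immune subunits were lower with amsacrine were also fitted together, without the Δ122p53 arrays. This fit was chosen after seeing the data, so its p-values are no independent support. In it Psmb10 fell by 1.51 (SE 0.20, adjusted p = 0.0092) and Psmb8 fell by 1.43 (SE 0.22, adjusted p = 0.0126), where 9.67% of all genes passed in that direction, and Psmb9 had -0.64 ± 0.20 (adjusted p = 0.0745). With all 3 genotypes in 1 additive fit of genotype and amsacrine, Psmb8 had -0.96 ± 0.33 (adjusted p = 0.149), and 0 of the 31 genes passed, where 2.07% of all genes did.

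**Figure D3:**
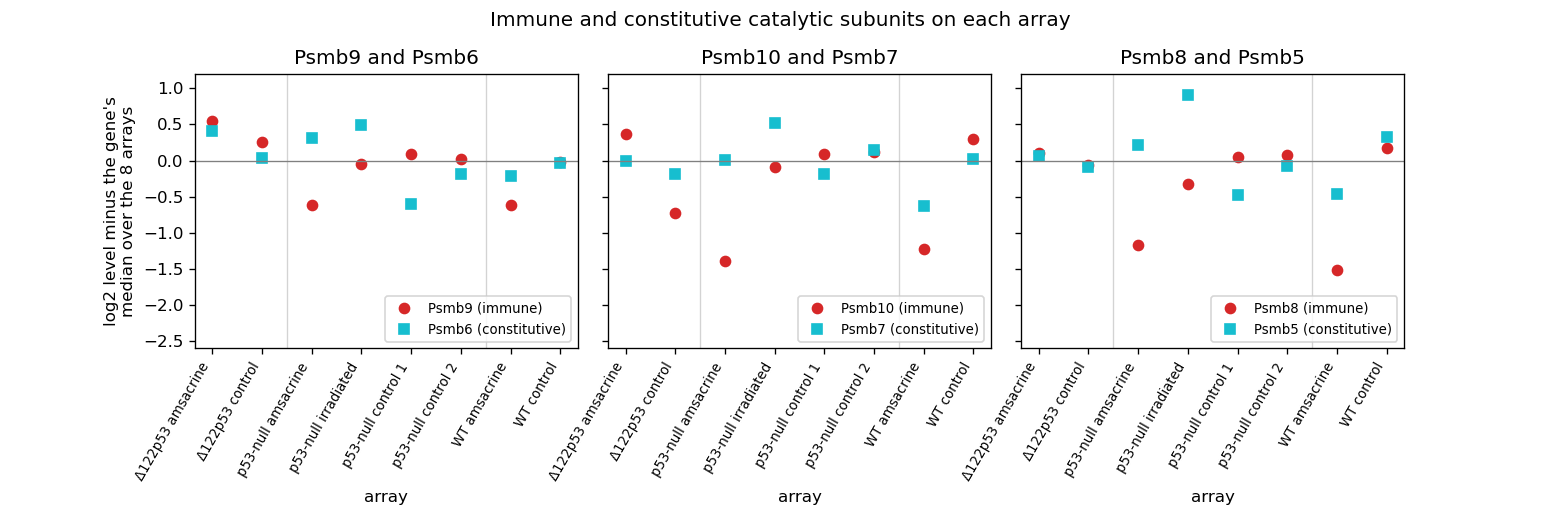
Each panel pairs an immune catalytic subunit (circles) with the constitutive subunit it replaces (squares); the vertical axis is the log2 level minus the gene's own median over the 8 arrays, and each horizontal position is 1 array. The immune subunits are lowest on the amsacrine arrays of p53-null and WT cells, and their constitutive partners are highest on the irradiated array.

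The promoters of the 3 immune subunits are shown because the amsacrine responses described above are those of these genes. The sequences are RefSeq's for GRCm38.p6, 250 bases before to 50 bases after the start of each gene, written 5′ to 3′ on the gene's strand, with motif matches in capitals: Psmb8 at chr17:34197945-34198244 on the plus strand, Psmb9 at chr17:34187281-34187580 on the minus strand, and Psmb10 at chr8:105938343-105938642 on the minus strand. Psmb8 and Psmb9 are near neighbours on chromosome 17, on opposite strands, while Psmb10 lies on chromosome 8.
Psmb8: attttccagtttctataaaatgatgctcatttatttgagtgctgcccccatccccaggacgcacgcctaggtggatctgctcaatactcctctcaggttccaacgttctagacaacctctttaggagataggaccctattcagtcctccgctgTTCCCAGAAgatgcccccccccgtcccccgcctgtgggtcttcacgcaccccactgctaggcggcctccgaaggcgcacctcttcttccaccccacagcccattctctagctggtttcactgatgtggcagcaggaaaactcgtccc
Psmb9: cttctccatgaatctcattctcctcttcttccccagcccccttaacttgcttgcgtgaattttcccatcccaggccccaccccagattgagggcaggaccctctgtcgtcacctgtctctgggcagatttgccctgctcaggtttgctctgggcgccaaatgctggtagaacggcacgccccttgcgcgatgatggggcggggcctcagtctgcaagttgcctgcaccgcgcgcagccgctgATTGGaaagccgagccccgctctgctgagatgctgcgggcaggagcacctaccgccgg
Psmb10: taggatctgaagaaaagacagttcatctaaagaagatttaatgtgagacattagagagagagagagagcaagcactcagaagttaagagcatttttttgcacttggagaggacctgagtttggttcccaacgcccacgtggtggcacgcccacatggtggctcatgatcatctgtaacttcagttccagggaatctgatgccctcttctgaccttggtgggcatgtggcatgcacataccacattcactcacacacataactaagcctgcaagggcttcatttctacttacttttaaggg

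The search covered 4 motifs, read on both strands in the windows of the 30 listed genes that had one; Psmb1 and Psmb7 were among those without. The interferon-stimulated response element (GAAA, any 2 bases, GAAA) was found in 3 of the 30 windows (Psmb3, Psmd4 and Psme1), beside 3.44% of all 32851 windows. The gamma-activated site TTCNNNGAA was found in 2 (Psmb8, with its first base at position -97 from the start, and Psmd2), beside 8.3% of all. The antioxidant-response element TGACNNNGC, the motif bound by the NRF factors, was found in 4 (Psmb5 at -47, Psmb6 at -9, Psmc6 and Psmd12), beside 12.4% of all. A CCAAT box, on either strand, was found in 11, among them Psmb9 at -8, beside 37.4% of all. No 2 of these motifs overlapped in the 3 printed windows, and a match is a description of letters, not of binding.

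In p53-null and WT cells the median amsacrine responses of the standard core and cap lay nearer 0 than those of the immune subunits, which were -1.24 and -1.52. Leaving out Psmb1, 20 core and cap genes were detected throughout, and their median response was 0.33 in Δ122p53 cells with 20 above 0, 0.33 in p53-null cells with 17 above 0, and -0.07 in WT cells with 10 above 0. With cyclic loess in place of quantile normalization, the median was 0.14 in p53-null cells with 13 above 0 and -0.23 in WT cells with 7 above 0. Without p53-null control 1, 13 of the 20 were above 0 in p53-null cells. Over all 4874 genes, 49.5%, 55.4% and 55.8% were above 0 in the same 3 responses, with medians of -0.00, 0.08 and 0.10. Psma4, an alpha subunit, had the largest core value in Δ122p53 cells, 0.75 ± 0.38. In WT cells all 7 constitutive beta subunits lay below 0, from -0.17 ± 0.41 for Psmb6 to -1.31 ± 0.55 for Psmb1, and Psmb5 had -0.79 ± 0.41. Psmd14, the deubiquitinase, had responses of 0.18 ± 0.46 in Δ122p53 cells, -0.80 ± 0.40 in p53-null cells (adjusted p = 0.364) and -0.98 ± 0.46 in WT cells (adjusted p = 0.305).

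For the 6 genes with a second probe detected on all arrays, both probes had the same sign in 5 for Δ122p53 cells, 6 for p53-null cells and 3 for WT cells. In WT cells Psmc5, Psmd13 and Psme1 had probes of opposite sign; for Psme1 the brighter probe gave 0.48 ± 0.38 and the other -0.54 ± 0.42. No direction is therefore given for these 3 in WT cells.

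Genotypes were compared over the control and amsacrine arrays together, in the additive fit. Set against WT, the Δ122p53 arrays had a higher level of the alpha subunit Psma1. By their brightest probes, the other measured proteasome genes apart from Psmb1 did not pass the adjusted p. A second probe of Psmd7 did pass and is given below with its brighter probe, which did not. Of the 25 genes other than Psmb1 that were detected throughout, 1 passed as higher and 0 as lower, where 5.38% and 8.19% of all such genes did. So in number these genes did not exceed the background, and Psma1 is described as the 1 that passed. The median over the 26 genes detected throughout was 0.02, beside -0.14 for all genes.

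Psma1, a subunit of the alpha ring, had levels of 11.39 and 11.08 on the amsacrine and control arrays of Δ122p53 cells, 10.97, 10.47, 10.75 and 10.34 on the amsacrine, irradiated and 2 control arrays of p53-null cells, and 9.85 and 9.84 on those of WT cells. The genotypes did not overlap, with Δ122p53 cells highest, WT cells lowest and p53-null cells between them. Psma1 was 1.39 ± 0.26 higher in Δ122p53 than in WT cells (2.61-fold; adjusted p = 0.0213), with 1.24 ± 0.41 between the control arrays and 1.53 ± 0.41 between the amsacrine arrays. Against p53-null cells the difference was 0.50 ± 0.24 (adjusted p = 0.273), and p53-null against WT cells gave 0.89 ± 0.24 (adjusted p = 0.471). These values come from 1 probe, since its other probe was not detected on any array.

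Of PA28, Psme2 had higher values on the Δ122p53 arrays than on the unirradiated arrays of the other genotypes, while the probes of Psme1 gave no shared direction against p53-null cells. Psme2 had levels of 9.81 and 9.32 with amsacrine and in the control of Δ122p53 cells, 8.84, 9.68, 8.75 and 8.68 on the amsacrine, irradiated and 2 control arrays of p53-null cells, and 8.44 and 8.81 on those of WT cells. The irradiated p53-null array lay between the 2 Δ122p53 arrays, and the difference from WT was 0.94 ± 0.27 (adjusted p = 0.0673) and from p53-null 0.80 ± 0.25 (adjusted p = 0.113). Psme1 differed from WT by 0.38 ± 0.25, while its second probe gave 0.06 ± 0.28. Against p53-null cells its probes gave 0.17 ± 0.23 and -0.29 ± 0.26, so no direction is given.

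Immune subunits are given separately for amsacrine and control arrays, since their responses had opposite signs in Δ122p53 and WT cells. Between amsacrine arrays, Psmb8 was 1.62 ± 0.38 higher in Δ122p53 than in WT cells (adjusted p = 0.0791), Psmb10 1.59 ± 0.38 (adjusted p = 0.0824) and Psmb9 1.16 ± 0.38 (adjusted p = 0.152). Between control arrays the values were -0.23 ± 0.38, -1.02 ± 0.38 and 0.28 ± 0.38 for the same 3 genes. The additive values of 0.70 ± 0.43, 0.28 ± 0.63 and 0.72 ± 0.30 therefore average over unlike values.

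In the cap, the brightest probes of all 9 genes detected throughout lay below 0 for Δ122p53 against WT (median -0.18) and for p53-null against WT (median -0.24), but the second probes of Psmc5, Psmd7 and Psmd13 did not. For comparison, all genes had medians of -0.14 and -0.05. None of the 9 passed by its brightest probe, and the 2 comparisons share the WT arrays. Psmd13 had -0.82 ± 0.24 for Δ122p53 against WT (adjusted p = 0.0699), but its second probe gave 0.75 ± 0.36. Psmd7 had -0.00 ± 0.25 by its brighter probe, while its second probe was 1.35 ± 0.24 higher in Δ122p53 cells (adjusted p = 0.0175 over all detected probes), and Psmc5 had -0.70 ± 0.28 and 0.09 ± 0.26 by its 2 probes. With probes of 1 gene in disagreement, no direction is given for Psmc5, Psmd7 and Psmd13 between Δ122p53 and WT cells. For p53-null against WT cells their second probes gave 0.08 ± 0.24, 0.93 ± 0.22 and 0.42 ± 0.33, opposite to -0.42, -0.24 and -0.66 by the brightest probes, and no direction is given there either. For Δ122p53 against p53-null cells, 0 of the 25 genes other than Psmb1 passed in either direction, where 3.69% of all genes detected throughout passed as higher and 3.73% as lower. For p53-null against WT cells 0 genes passed (0%); 1 of the 26 was higher and 2 were lower at an unadjusted p under 0.05, where 8.88% of all genes detected throughout were either. Within control arrays or within amsacrine arrays alone, no listed gene other than Psmb1 passed for Δ122p53 against WT or p53-null cells. Of all genes, 3.1% and 4.14% did so between control arrays and 4.09% and 3.06% between amsacrine arrays, and 0% for p53-null against WT in either.

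Psmb1, a beta subunit without a cutting site of its own, was singled out for its low values on the Δ122p53 arrays, so they are described without a test. Its deposited intensity was 172.7 with amsacrine and 171.5 in the control of Δ122p53 cells. It was 1884 with amsacrine, 3232 with irradiation and 1570 and 3418 in the controls of p53-null cells, and 1048 with amsacrine and 4238 in the control of WT cells. All 8 arrays detected the probe, and both Δ122p53 arrays lay far below the 1048 to 4238 of the other 6.

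As log2 levels these were 7.19 and 7.02 in Δ122p53 cells, 10.91, 11.46, 10.51 and 11.47 in p53-null cells in the same order, and 10.38 and 11.68 in WT cells. The log2 difference in the additive fit was -3.92 for Δ122p53 against WT cells (15.2-fold lower) and -3.79 against p53-null cells (13.9-fold lower). Among the 4874 genes detected throughout these were the lowest values of both comparisons. Between control arrays it was 25.3-fold lower than in WT cells, and between amsacrine arrays 9.10-fold lower. Amsacrine moved it by 0.17 ± 0.55 in Δ122p53 cells.

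The other members of the beta ring did not share this. For Δ122p53 against WT, Psmb2 had -0.74 ± 0.32 (adjusted p = 0.164), Psmb3 -0.12 ± 0.26, Psmb4 0.05 ± 0.28, Psmb5 0.06 ± 0.36, Psmb6 0.35 ± 0.31 and Psmb7 0.21 ± 0.29. Psmb2 had levels of 10.59 and 10.54 on the Δ122p53 arrays, against 10.84 to 11.92 on the p53-null arrays and 11.03 and 11.58 on the WT arrays, so its Δ122p53 values were the 2 lowest by a margin far smaller than that of Psmb1.

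Psmb1 lies on chromosome 17, and of the 3 protein-coding genes annotated on either side of it, Ermard, Tbp and Pdcd2 were detected on all arrays. Tbp, the TATA-binding protein, differed by 0.59 ± 0.24 between Δ122p53 and WT cells (adjusted p = 0.140) and by -0.10 ± 0.22 between Δ122p53 and p53-null cells. Pdcd2 differed by -0.15 ± 0.27 and -0.02 ± 0.25, and Ermard by 0.62 ± 0.40 and 0.18 ± 0.37. The low value was thus not shared by these neighbours. Psmb1 had 1 probe, whose sequence is not used here, so less Psmb1 RNA and weaker binding of the probe to the Δ122p53 RNA cannot be told apart.

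The genes outside the list whose levels were most like those of Psmb1 over the 8 arrays were Cldn10, Mfng and Klra17. Cldn10 is a claudin (Pearson r = 0.980) and Mfng a modifier of Notch receptors (0.978). For Klra17, detected on 6 arrays, r was 0.974. The likeness describes the same 2 low Δ122p53 arrays and a few others: Cldn10 was at 6.31 and 6.56 in Δ122p53 cells, against 7.87 to 8.63 in p53-null cells and 7.68 and 8.28 in WT cells.

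**Figure D4:**
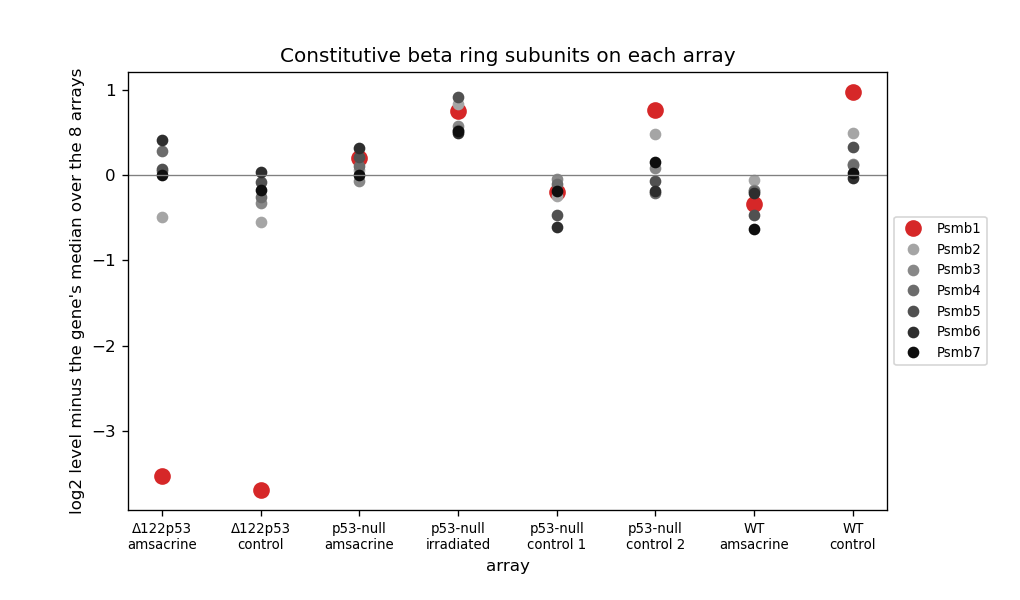
The log2 level minus the gene's own median is plotted for the 7 constitutive beta subunits on each array, with Psmb1 in red and the others in grey. Psmb1 lies more than 3 below its median on both Δ122p53 arrays, while the 6 other subunits lie within 1 of theirs on every array.

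Genes around the proteasome were examined in further lists. Of 20 assembly chaperones, regulators and other proteasome genes, 14 were measured and 11 were detected throughout. These 11 had a median of 0.67 after irradiation of p53-null cells and 10 above 0, beside a median of 0.06 and 54.9% above 0 for all genes. In Δ122p53 against WT cells 2 of the 11 passed as higher, where 5.38% of all such genes did: Psmf1, a regulator that binds the core (1.40 ± 0.26, adjusted p = 0.0213), and Psme4, the PA200 activator (1.21 ± 0.31, adjusted p = 0.0445). Psmf1 had levels of 11.32 and 10.44 on the amsacrine and control arrays of Δ122p53 cells, against 9.23 to 9.94 on the p53-null arrays and 9.56 and 9.40 on those of WT cells, with no overlap, and also passed against p53-null cells (1.40 ± 0.24, adjusted p = 0.0197). Usp14, a deubiquitinase of the cap, was not detected on the WT arrays and was at least 1.72-fold higher in Δ122p53 cells (adjusted p = 0.0233, limma). This bound was measured against the higher of its own value and the lowest detected signal on each WT array. Its levels were 6.61 and 6.82 on the amsacrine and control arrays of Δ122p53 cells, and 6.62 on the irradiated p53-null array. They lie near the lowest detected signals, which were 5.72 to 6.05 over the arrays.

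Class I antigen presentation, which uses the peptides made by the proteasome, had 9 of 14 genes measured, all detected throughout. For Δ122p53 against WT cells 2 of the 9 passed, both higher, where 5.38% of all such genes did: Nlrc5, the transactivator of class I genes (1.76 ± 0.31, adjusted p = 0.0169), and Tapbp, the peptide-loading chaperone tapasin (1.63 ± 0.27, adjusted p = 0.0152). Of 30 interferon-response genes 20 were measured and 11 were detected throughout. These 11 had a median of 3.09, with 9 passing as higher where 5.38% of all such genes did, among them Rsad2 (4.57 ± 0.35, adjusted p = 0.00189). The mean level of the 20 was 10.85 with amsacrine and 9.42 in the control of Δ122p53 cells, 7.19 with amsacrine, 7.72 with irradiation and 8.04 and 7.75 in the controls of p53-null cells, and 7.03 with amsacrine and 7.36 in the control of WT cells. The 2 Δ122p53 arrays had the highest means. The amsacrine and control arrays of Δ122p53 cells detected 20 and 19 of the 20 genes, and the other arrays 12 to 17. Any gene that counted as measured only through the Δ122p53 arrays would add to this contrast, so the means are a description. The median response to amsacrine over the 11 was 1.25 in Δ122p53 cells, with all 11 above 0, -0.74 in p53-null cells and -0.41 in WT cells. Of all genes detected throughout, 49.5% were above 0 in Δ122p53 cells. In these responses 0 of the 11 passed, where 0% of all genes did in Δ122p53 and WT cells and 0.134% in p53-null cells. The signs of the 3 interferon-response medians are those of the immune subunits, and whether the 2 lists are related was not tested.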

How the data were processed

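RNA from 8 splenocyte samples was hybridised to Illumina mouse beadchips. The authors deposited a table of probe intensity values with detection p-values, non-normalized per the file headers, and a table of normalized values that is treated here as log2 and was made with lumi per the submitters' processing notes, with no version or settings. The columns of that table were quantile normalized, each with a median of 7.30, in the rank order of the intensities; its background correction and its transform are unknown, and its r with the levels used here was 0.966. It served as an alternative only.

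Intensities were processed with limma 3.58.1 in R 4.3.3: normexp background inferred from the detection p-values, an offset of 16, quantile normalization and log2. Genes were named through a probe table (20984 of 24613 probes with 1 symbol, 1 with several, 3628 unnamed; symbols of 20968 updated by Entrez ID), and the brightest detected probe stood for its gene. A group-means model over 8 arrays (1 residual df, from the p53-null control pair; prior df 4.78, prior SD 0.292) gave responses, interactions and comparisons within control or amsacrine arrays. Single arrays are there assumed to vary like that pair. An additive model of genotype and amsacrine over the 7 unirradiated arrays (3 residual df) gave genotype differences. Errors are standard errors, p-values are 2-sided, and Benjamini-Hochberg adjustment ran over all 7456 genes at 0.05. The scripts were tested on simulated data.

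Genes named were all listed members with a detected probe, the 4 of each further list (2 of a cell type list) with the largest Δ122p53 against WT difference, those passing first, and the 3 genes most like Psmb1. Members, lists and rules were chosen with earlier results of these data known. Chip and scan were not given in the sources used here. Alternatives were normexp with an offset of 50, no background correction, cyclic loess, the authors' table, other detection filters, all detected probes, and either p53-null control left out.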

Additional observations from a re-analysis of the deposited data

How the results depend on the processing

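Counts of members called, medians of the 26 members and the value of Psmb1 were recomputed under each alternative: 184 of these values stayed close, 16 counts went lower, 2 went higher and 1 median moved, and no median of the 26 changed sign. Medians of small groups did: PA28 responses to amsacrine, 0.05 in WT and 0.03 in p53-null cells, were -0.08 and -0.06 with cyclic loess, and the p53-null value -0.00 without control 2. The median amsacrine response of all genes in WT cells, 0.05, was -0.02 with cyclic loess, and other all-gene medians near 0 changed sign too. The calls of Psmb1, which was chosen for its low values, are a description: members called in Δ122p53 against WT and against p53-null cells numbered 1 each between control arrays, Psmb1 alone, and 0 with cyclic loess, with the authors' table and with no detection filter, where fewer or no genes at all were called. Between amsacrine arrays they numbered 1 each, again Psmb1, and 0 under those 3 settings, with an offset of 50 and with no background correction. In the additive fit, members called for Δ122p53 against WT numbered 2 of 31, Psmb1 and Psma1, where 1061 of all 7456 genes passed. With the authors' table they numbered 5, where 686 of all genes passed. That table added Psma4, Psmd8 and Psmd13, but the second probe of Psmd13 had the opposite sign in the main setting. Psma1 kept 1.29 to 1.49 and its call in this fit throughout. Psmb1 had -2.97 there with the authors' table, against -3.92. With the Δ122p53 arrays left out, 2 of 31 members passed the common amsacrine test, where 17% of all genes did. With those arrays included 0 members passed, where 2.07% of all genes did. The causes were not tested.

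Over all genes the Δ122p53 against WT count was 1061, and 686 with the authors' table and 654 with no detection filter; without a p53-null control it was 636 to 740. Without a p53-null control the count against p53-null cells was 234 to 302, beside 621, and the common amsacrine count was 1, beside 154. Amsacrine calls in p53-null cells, 10 in the main setting, were 0 to 32. Cyclic loess moved the median response of the 26 members to amsacrine in WT cells to -0.37, against -0.16. Without either p53-null control the group-means model has no residual df, so those fits give values and no test: the irradiation median was 0.58 to 0.85 and the p53-null amsacrine median 0.17 to 0.27. No paired analysis was possible because the groups share only replicate number 1. A missed threshold does not show that a gene did not change.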

Other observations

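Ubiquitin and shuttle genes, 9 of 20 detected on all arrays, are upstream of the proteasome. Their median response to amsacrine was 0.29 in Δ122p53 cells, 0.38 in p53-null cells with 9 of 9 above 0, and 0.44 in WT cells. Over all genes detected throughout, 55.4% were above 0 in p53-null cells. Of the 9, 0 passed the adjusted p in any of these responses. The shares of all genes that passed were 0% in Δ122p53 and WT cells and 0.134% in p53-null cells. Sqstm1, the autophagy receptor that binds ubiquitin, had levels of 11.74 with amsacrine, 11.28 with irradiation and 9.93 and 10.34 in the controls of p53-null cells, so both treated arrays lay above both controls (1.61 ± 0.36 for amsacrine, adjusted p = 0.124, and 1.15 ± 0.36 for irradiation, adjusted p = 0.277, limma). For Δ122p53 against WT cells Zfand2a, Ube2n and Sqstm1 had -0.97, 0.78 and 0.72, and 0 of the 11 measured genes passed, where 1061 of all 7456 genes did.

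Of 16 mitotic genes 8 were measured and 4 were detected on all arrays. These 4 had a median of 2.56 for Δ122p53 against WT cells, and all 4 passed as higher, where 5.38% of all genes detected throughout did. Their median amsacrine response was 0.69 in Δ122p53 cells, -0.79 in p53-null cells and -1.29 in WT cells, the same order of signs as the immune subunits. Only 2 of the 12 erythroid markers were detected on all arrays, so no count is given for that list. Hemgn, an erythroid nuclear protein, was detected on neither the WT nor the p53-null arrays. It was at least 20.5-fold higher in Δ122p53 than in WT cells. Since it counted as measured only through the Δ122p53 arrays, where it was high, this value is a description and no support. Over the markers detected throughout, the medians for Δ122p53 against WT cells were -1.61 for 8 of T cells, -1.70 for 4 of NK cells, -2.32 for 3 of macrophages, -0.45 for 7 of B cells and -1.40 for 7 of neutrophils. Neutrophil markers averaged 8.83 and 10.52 on the 2 p53-null controls, the widest gap between them among the cell type lists, while the 3 immune subunits differed by -0.06 to 0.04 there. The same markers averaged 8.51 on the p53-null amsacrine array and 10.15 on the irradiated array.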
